A study of Mus musculus with 86 samples.

Results

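Lung of wild-type mice given bleomycin was compared with lung of sham-treated wild-type mice, all of which received UNC569, an inhibitor of the receptor tyrosine kinase MERTK. The 9 libraries, 6 after bleomycin (columns Bleo_UNC_0 to Bleo_UNC_5 of the deposited lung table) and 3 sham (Sham_UNC_0 to Sham_UNC_2), were taken from the 86 samples of the series by these column names. The series holds RNA-seq of mouse kidney, liver and lung from fibrosis models, with Mertk knockout or with UNC569. For lung it also holds 6 bleomycin and 3 sham libraries of wild-type mice given the solvent DMSO. These entered the same filter and fit, where they add to the estimate of the spread, and are otherwise used only beside the UNC569 libraries. Strain, age, sex, the doses of bleomycin and UNC569, the route and the time of sampling are not given in the sources used here. The column names give the group of a library but not which sample it is, and no label says which libraries share an animal or a batch, so p-values measure only the spread between these libraries.

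Bleomycin breaks DNA, and in mouse lung it is the standard means of causing epithelial injury, inflammation and then scarring, in which fibroblasts deposit collagen. MERTK is one of the TAM receptors (TYRO3, AXL and MERTK), which bind phosphatidylserine on dying cells through the bridging ligands GAS6 and protein S. Macrophages use it to take up apoptotic cells, a process called efferocytosis, and apoptotic neutrophils are among its main cargo in inflamed lung. UNC569 blocks the kinase activity of MERTK, while the Mertk gene of these mice is intact.

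Values are FPKM as deposited, a measure of transcript level scaled to transcript length and to the mapped fragments of the library. Tests were made with limma on log2(FPKM + 1) in 15935 genes with at least 1 FPKM in at least 3 of the 18 lung libraries, and a gene passed at a Benjamini-Hochberg adjusted p under 0.05. A change is given as log2 ± SE (standard error) on that scale, which understates the change of low genes. Groups are said not to overlap where all 6 bleomycin libraries lay above, or all below, all 3 sham libraries. The read depth is unknown. The size of the smallest steps in low values put the depth of the 9 libraries within 0.933 to 1.32 times that of 1 DMSO sham library. Lung markers were present in every library: the surfactant gene Sftpc, which marks alveolar type 2 cells, ranged from 1061 to 1881 FPKM, and Ager, which marks type 1 cells, from 201 to 303 FPKM. These are bulk samples, in which fewer cells of a type and less RNA per cell cannot be told apart.

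Sham_UNC_1 stood apart from the other sham libraries by cardiac muscle and fat transcripts. The mean log2(FPKM + 1) of the 21 cardiac muscle genes tested was 5.66 there, 1.40 in Sham_UNC_0 and 1.88 in Sham_UNC_2. Among the bleomycin libraries it was 4.77 in Bleo_UNC_2 and 4.75 in Bleo_UNC_5, and 0.68 to 2.58 in the other 4. The 10 adipocyte genes tested had a mean of 7.47 in Sham_UNC_1 and of 1.34 to 4.37 in the other 8 libraries. List values without Sham_UNC_1 are therefore printed beside those of all 9 libraries, and the muscle and fat genes have their own account further on.

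**Figure D1:**
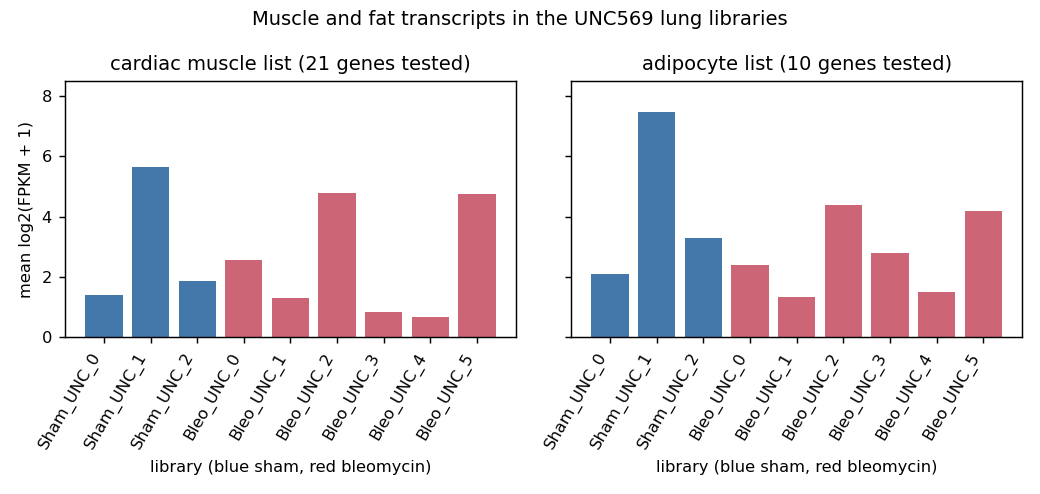
Bars give the mean log2(FPKM + 1) of the 21 cardiac muscle genes (left) and the 10 adipocyte genes (right) in each library, sham in blue and bleomycin in red. Sham_UNC_1 is highest in both panels (5.66 and 7.47), and Bleo_UNC_2 and Bleo_UNC_5 come next.

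After bleomycin with UNC569, 3 genes rose and 1 fell of 15935 tested. The 3 that rose were Ngp, which encodes a protein of neutrophil granules, Cks2, a small subunit of cyclin-dependent kinases, and Gm26636, an antisense RNA with no function known here. Sept6, a septin of the cytoskeleton, fell. Rises were called in 0.0188% of genes and falls in 0.00628%, and 0.0251% were called in all. At an unadjusted p under 0.05, limma gave 525 higher (3.29%) and 1162 lower genes (7.29%). Only Ngp met the rule for naming genes by size and level, and the other 3 were named after their values were seen, because so few passed. Without Sham_UNC_1 no gene passed, with a smallest limma adjusted p of 0.160, and without Bleo_UNC_3 none did either (0.0578). A fit on the 9 UNC569 libraries alone, without the DMSO libraries, called 0 higher and 0 lower, so the calls rest on the shared estimate of the spread.

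Ngp (ENSMUSG00000032484, GRCm38 chr9:110419747-110423012, plus strand) stood at 0.175, 0.203 and 0.308 FPKM in Sham_UNC_0, 1 and 2. In the bleomycin libraries it was 25.6, 16.8, 60.5, 56.1, 12.1 and 6.23 FPKM in the order Bleo_UNC_0 to 5. Every bleomycin library lay far above every sham library, with Bleo_UNC_2 and Bleo_UNC_3 highest. The change was log2 4.24 ± 0.69, limma adjusted p = 0.0394, and 4.23 without Sham_UNC_1, where the limma adjusted p was 0.234. Cks2 (ENSMUSG00000062248, GRCm38 chr13:51645232-51650660, plus strand) was at 1.27, 1.48 and 0.787 FPKM in the sham libraries and at 2.95 to 11.4 FPKM (median 5.95) after bleomycin, with Bleo_UNC_1 highest and no overlap (log2 1.68 ± 0.27, limma adjusted p = 0.0394). Its protein binds cyclin-dependent kinases.

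Sept6 (ENSMUSG00000050379, GRCm38 chrX:36911326-36991794, minus strand) was at 7.73, 8.83 and 8.0 FPKM in the sham libraries and at 4.00 to 4.99 FPKM (median 4.69) after bleomycin. All 6 bleomycin libraries lay below all 3 sham libraries and within 1 FPKM of each other (log2 -0.71 ± 0.11, limma adjusted p = 0.0348). Gm26636 (ENSMUSG00000097763, GRCm38 chr6:87908843-87914459, minus strand) was at 1.05, 0.472 and 0.905 FPKM and at 2.28 to 4.03 FPKM (median 3.06), with no overlap (log2 1.19 ± 0.16, limma adjusted p = 0.0160). Its model lies on the minus strand over the end of Copg1 and the start of Hmces, both on the plus strand, and the library kit does not keep strand, so its reads cannot be told apart from reads of those genes. In the 9 fits that left out 1 library each, Gm26636 passed in 7, Sept6 in 2, and Ngp and Cks2 in 1 each.

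**Figure D2:**
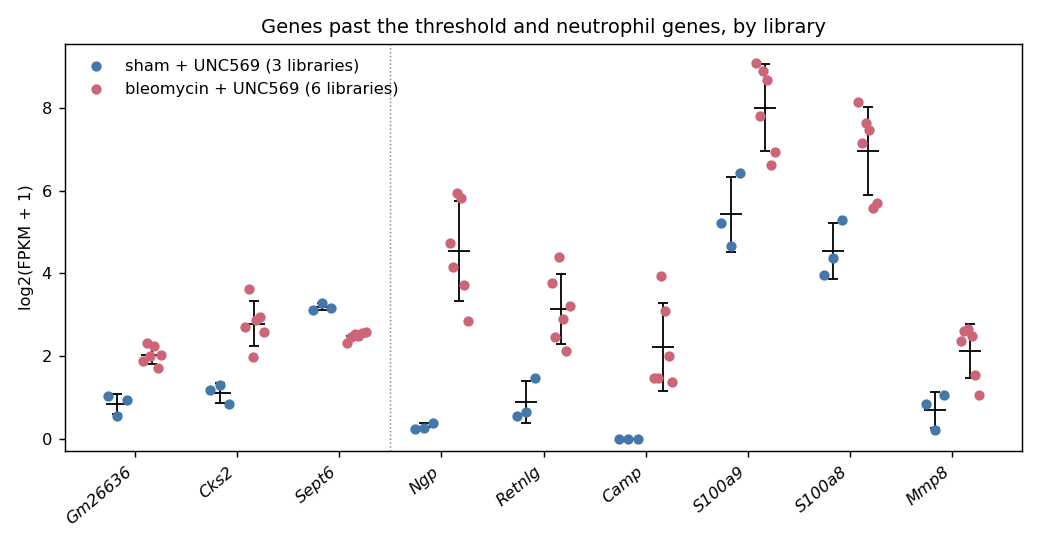
Each dot is 1 library on the log2(FPKM + 1) axis, blue for sham and red for bleomycin, both with UNC569. Black dashes and bars give the mean and SD of those values. Left of the dotted line are 3 of the genes past the threshold, and right of it 6 neutrophil genes, among them Ngp (0.175, 0.203 and 0.308 FPKM in sham). In all 9 genes the groups do not overlap.

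Counts of separated groups give the background for the gene lists that follow. The groups did not overlap with bleomycin higher in 242 genes (1.52%) and with bleomycin lower in 611 (3.83%). Median-of-ratios scaling of the libraries moved this to 361 (2.27%) and 394 (2.47%), with scaling factors of 1.02 to 1.03 in sham and 0.969 to 1.01 in bleomycin libraries. Without Sham_UNC_1 the counts were 494 (3.1%) and 1087 (6.82%). Without Bleo_UNC_1 the shares were 2.25% and 5.38%, and without Bleo_UNC_5 they were 1.9% and 4.64%. The median log2 over all genes tested was -0.047 and -0.038 without Sham_UNC_1, and list medians are read against it. Of the list genes, only Ngp passed the adjusted threshold, so the members below are described by their levels and not called changed.

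Neutrophil genes were higher after bleomycin with UNC569. Of 12 genes in the list, 10 were tested, and in 6 of these all bleomycin libraries lay above all sham libraries, against 1.52% of all genes. The median log2 was 1.86 over the 10, with a range from 0.52 to 4.24, and 2.07 without Sham_UNC_1. S100a9, which with S100a8 forms calprotectin, the main cytosolic protein of neutrophils, was at 36.3, 24.2 and 84.9 FPKM in sham and at 97.2 to 546 FPKM (median 316) after bleomycin (log2 2.57 ± 0.67, limma adjusted p = 0.289). S100a8 was at 14.6, 19.9 and 38.2 FPKM and at 46.9 to 284 FPKM (median 159.5) (log2 2.41 ± 0.65, limma adjusted p = 0.289). In both genes Sham_UNC_2 was the highest sham library and Bleo_UNC_4 the lowest bleomycin library, and the groups did not overlap.

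Retnlg, a resistin-like secreted protein of neutrophils, was at 0.474, 0.569 and 1.78 FPKM in sham and at 3.34 to 19.9 FPKM (median 7.37) after bleomycin (log2 2.25 ± 0.56, limma adjusted p = 0.279). Camp, the cathelicidin of secondary granules, was listed at 0 in all 3 sham libraries and at 1.59 to 14.4 FPKM (median 2.38) after bleomycin, so no fold is given. Mmp8, neutrophil collagenase, was at 0.782, 0.157 and 1.09 FPKM and at 1.10 to 5.30 FPKM (median 4.38), with Bleo_UNC_5 just above the highest sham library (log2 1.42 ± 0.37, limma adjusted p = 0.289). The levels of Mmp9, another granule protease, overlapped: 3.71, 5.6 and 4.01 FPKM in sham and 3.91 to 23.5 FPKM (median 15.7) after bleomycin. Ltf, lactoferrin of the same granules, did not follow the others, at 28.8 FPKM in Sham_UNC_1 against 0.280 and 0.380 FPKM in the other sham libraries and 1.34 to 7.60 FPKM (median 5.42) after bleomycin. Elane and Mpo, made in immature granulocytes of bone marrow, did not pass the filter and were at most 0.303 and 0.327 FPKM in the 9 libraries.

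Within the bleomycin group the neutrophil genes were higher in Bleo_UNC_0 to 3 than in Bleo_UNC_4 and 5. The mean log2(FPKM + 1) of the list was 4.58, 3.91, 4.78 and 4.55 in Bleo_UNC_0 to 3, 3.04 in Bleo_UNC_4 and 3.14 in Bleo_UNC_5, and 1.75 to 2.23 in sham. The summed level of the 8 erythroid and platelet genes, which trace blood left in the tissue, was 3179 to 8359 FPKM in sham and 2289 to 24947 FPKM after bleomycin. The groups were separated in 0 of these 8 with bleomycin higher and 0 lower (0 and 1 without Sham_UNC_1; median log2 -0.034 and -0.023), Bleo_UNC_0 was highest, and the part of residual blood in the neutrophil genes was not tested.

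By its list mean, mitosis was above every sham library in 5 of 6 bleomycin libraries. Of 24 mitosis genes tested, 4 had all bleomycin libraries above all sham libraries and 0 the reverse, with a median log2 of 0.79 (0.68 without Sham_UNC_1) and a lowest value of 0.13. Aurkb, the kinase of the chromosomal passenger complex, was at 1.32, 2.55 and 1.54 FPKM in sham and at 3.67 to 10.2 FPKM (median 6.92) after bleomycin (log2 1.45 ± 0.38, limma adjusted p = 0.289). Top2a, which untangles replicated DNA, was at 4.15, 2.18 and 4.86 FPKM and at 6.18 to 19.5 FPKM (median 12.8) (log2 1.44 ± 0.42, limma adjusted p = 0.330). Birc5, or survivin, a partner of Aurkb in that complex, was at 3.96, 2.02 and 2.83 FPKM and at 4.44 to 18.8 FPKM (median 11.3) (log2 1.47 ± 0.50, limma adjusted p = 0.383). In these genes the groups did not overlap, and Bleo_UNC_2 and Bleo_UNC_3 were the bleomycin libraries nearest to sham. Ccnb2, a B-type cyclin, overlapped, at 1.14, 0.329 and 2.35 FPKM in sham and 1.79 to 5.97 FPKM (median 3.12) after bleomycin (log2 1.02 ± 0.37, limma adjusted p = 0.390).

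The list mean was 2.93 in Bleo_UNC_1 and 2.78 in Bleo_UNC_4, the highest, and 1.55 in Bleo_UNC_2, which lay among the sham values of 1.41 to 1.67. Of 16 DNA replication genes, 2 were separated with bleomycin higher and the median log2 was 0.39 (0.38 without Sham_UNC_1). Rrm2, the small subunit of ribonucleotide reductase, was at 1.69, 1.59 and 2.17 FPKM in sham and at 2.90 to 11.6 FPKM (median 5.92) after bleomycin (log2 1.22 ± 0.38, limma adjusted p = 0.335). Mcm2, of the replicative helicase, was at 8.73, 4.72 and 5.68 FPKM and at 7.21 to 13.0 FPKM (median 10.2), where only Sham_UNC_0 overlapped the bleomycin range (log2 0.61 ± 0.24, limma adjusted p = 0.409). E2f1, a transcription factor of S-phase genes, was at 7.34, 5.47 and 5.83 FPKM and at 6.58 to 9.53 FPKM (median 8.90) (log2 0.38 ± 0.15, limma adjusted p = 0.415). Cdc6, which loads that helicase onto DNA, was at 0.550, 0.334 and 0.400 FPKM and at 0.518 to 2.62 FPKM (median 1.09) (log2 0.56 ± 0.24, limma adjusted p = 0.429).

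Mitosis genes are known to share promoter elements, the CCAAT box bound by NF-Y and the cell cycle homology region TTTGAA, so the promoters of the list are shown for the members with the smallest p that had one. RefSeq promoter windows (GRCm38.p6, 250 bases before to 50 after a start) were found for 20 of 25 genes, and Aurkb was without one. CCAAT, or ATTGG on the other strand, was in 18 of those 20 genes (20 of their 22 windows) and in 37.4% of all 32851 windows. TTTGAA, or TTCAAA on the other strand, was in 15 of 20 genes (17 of 22 windows) and in 17.9% of all windows. The 250 bases before the start alone are printed here 5′ to 3′ with both motifs in capitals. In these the counts were 18 of 20 genes (20 of 22 windows, and 33.9% of all windows) and 9 of 20 (10 of 22, and 16.0%). In the stretches printed the motifs overlap no letters of each other, and a match is a description and not a binding site. The stretches are Top2a, chr11:99024190-99024439, minus strand; Ccnb2, chr9:70421555-70421804, minus strand; Aurka, chr2:172370571-172370820, minus strand; and Birc5, chr11:117848987-117849236, plus strand.
Top2a: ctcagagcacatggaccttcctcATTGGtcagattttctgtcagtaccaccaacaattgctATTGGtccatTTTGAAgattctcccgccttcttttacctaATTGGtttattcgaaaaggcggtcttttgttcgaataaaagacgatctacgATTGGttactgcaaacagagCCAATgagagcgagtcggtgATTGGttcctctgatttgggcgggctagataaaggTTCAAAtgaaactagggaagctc
Ccnb2: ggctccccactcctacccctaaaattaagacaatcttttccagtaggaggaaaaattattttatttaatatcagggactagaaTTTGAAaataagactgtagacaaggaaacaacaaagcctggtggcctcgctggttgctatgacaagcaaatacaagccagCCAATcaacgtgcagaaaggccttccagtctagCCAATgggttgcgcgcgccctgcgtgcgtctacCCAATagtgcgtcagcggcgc
Aurka: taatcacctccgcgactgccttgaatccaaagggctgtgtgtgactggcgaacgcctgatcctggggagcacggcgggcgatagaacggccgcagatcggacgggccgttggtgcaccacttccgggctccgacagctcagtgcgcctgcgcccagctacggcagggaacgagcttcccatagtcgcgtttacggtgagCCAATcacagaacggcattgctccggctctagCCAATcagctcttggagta
Birc5: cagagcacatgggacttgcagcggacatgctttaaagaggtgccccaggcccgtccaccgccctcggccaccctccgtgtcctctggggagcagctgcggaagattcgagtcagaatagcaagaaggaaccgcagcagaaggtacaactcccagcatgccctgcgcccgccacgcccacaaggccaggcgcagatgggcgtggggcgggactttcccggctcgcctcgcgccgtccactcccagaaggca
Top2a held 6 CCAAT and 2 TTTGAA matches, Ccnb2 3 and 1, Aurka 2 and 0, and Birc5 0 and 0.

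The mean of the B cell genes was lower in all 6 bleomycin libraries than in all 3 sham libraries. Of 9 B cell genes, 6 had all bleomycin libraries below all sham libraries, against 3.83% of all genes. The median log2 was -0.84 (-0.88 without Sham_UNC_1) and the highest member was at -0.146. With median-of-ratios scaling 4 of the 9 were separated. Ms4a1, which encodes CD20, was at 10.8, 14.1 and 13.0 FPKM in sham and at 4.60 to 6.96 FPKM (median 5.84) (log2 -1.03 ± 0.31, limma adjusted p = 0.335). Cd79a, a signalling chain of the B cell receptor, was at 46.9, 43.6 and 35.5 FPKM and at 17.4 to 27.2 FPKM (median 19.6) (log2 -0.96 ± 0.31, limma adjusted p = 0.365). Cd22, an inhibitory receptor, was at 9.78, 9.27 and 9.54 FPKM and at 5.32 to 7.68 FPKM (median 6.11) (log2 -0.55 ± 0.19, limma adjusted p = 0.387). In each of these 3 genes the groups did not overlap.

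Of 17 T and NK cell genes, 6 were separated with bleomycin lower, against 3.83% of all genes, and 5 after scaling, against 2.47%. The median log2 was -0.41 (-0.69 without Sham_UNC_1), and members ranged from -0.86 to 0.33. The members named here are genes of NK and cytotoxic cells and do not stand for the T cell genes of the list. Gzmb, the cytotoxic protease granzyme B, was at 7.83, 4.46 and 5.99 FPKM in sham and at 1.73 to 4.2 FPKM (median 3.51) after bleomycin (log2 -0.74 ± 0.22, limma adjusted p = 0.335). Ncr1, the NK cell receptor NKp46, was at 4.83, 2.60 and 3.91 FPKM and at 1.10 to 2.47 FPKM (median 1.92) (log2 -0.77 ± 0.23, limma adjusted p = 0.335). Nkg7, a protein of cytotoxic granules, was at 18, 13.0 and 13.5 FPKM and at 5.53 to 11.4 FPKM (median 8.90) (log2 -0.77 ± 0.30, limma adjusted p = 0.404). Sham_UNC_0 was the highest library in these 3 genes, which were separated between groups. Klrb1c, NK1.1, was at 7.46, 3.09 and 4.60 FPKM and at 0.782 to 3.53 FPKM (median 2.45), with Sham_UNC_1 inside the bleomycin range (log2 -0.86 ± 0.31, limma adjusted p = 0.390).

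All 5 genes tested that mark mesothelium, the cell layer of the pleura, were lower in every bleomycin library than in every sham library, 4 of 5 after scaling. Their median log2 was -1.38 (-1.30 without Sham_UNC_1). Upk3b, a uroplakin of mesothelial cells, was at 67.8, 83.2 and 59.0 FPKM in sham and at 4.71 to 45.1 FPKM (median 11.9) after bleomycin (log2 -2.29 ± 0.78, limma adjusted p = 0.383). Lrrn4, a leucine-rich repeat membrane protein, was at 12.9, 21.5 and 13.5 FPKM and at 0.645 to 6.14 FPKM (median 2.46) (log2 -2.23 ± 0.62, limma adjusted p = 0.289). Within the bleomycin group both were highest in Bleo_UNC_2 and Bleo_UNC_3 and lowest in Bleo_UNC_0, 1 and 4. Msln, mesothelin, was at 13.5, 12.6 and 8.23 FPKM and at 1.04 to 7.76 FPKM (median 3.99) (log2 -1.38 ± 0.50, limma adjusted p = 0.390). Upk1b was at 28.6, 27.2 and 25.5 FPKM and at 11.3 to 21.3 FPKM (median 16.0) (log2 -0.71 ± 0.25, limma adjusted p = 0.387). Wt1, a transcription factor of these cells, was at 1.80, 4.99 and 1.32 FPKM and at 0.26 to 1.27 FPKM (median 0.490) (log2 -1.11 ± 0.30, limma adjusted p = 0.289), and its log2 was -0.70 without Sham_UNC_1, its highest library. How much pleura each piece of lung held is not given in the sources used here, and its part in these levels was not tested.

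Genes of the circadian clock lay apart in both directions. Of 13 tested, 6 were lower in every bleomycin library than in every sham library (5 after scaling) and 3 were higher. The list's median log2 was -0.80 (-0.45 without Sham_UNC_1). The clock runs on ARNTL (BMAL1) with CLOCK or NPAS2, which drive the Per, Cry, Nr1d and PAR bZIP genes (Dbp, Tef, Hlf), and the NR1D proteins in turn repress Arntl and Npas2. Dbp was at 300.3, 295 and 266 FPKM in sham and at 82.8, 37.8, 35.1, 33.5, 27.4 and 229.9 FPKM in Bleo_UNC_0 to 5 (log2 -2.40 ± 0.83, limma adjusted p = 0.383). Bleo_UNC_5 lay near sham and the other 5 far below. Hlf, with the smallest p of the list, was at 23.2, 18.3 and 16.0 FPKM and at 1.76 to 7.53 FPKM (median 3.94) (log2 -2.02 ± 0.43, limma adjusted p = 0.237). Tef was at 134, 150.2 and 153 FPKM and at 46.1 to 115 FPKM (median 67.8) (log2 -1.03 ± 0.33, limma adjusted p = 0.356).

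Nr1d1, Nr1d2 and Per3, which encode repressors, were separated with bleomycin lower. Nr1d1 was at 219, 209.9 and 213 FPKM in sham and at 61.1 to 137 FPKM (median 85.2) after bleomycin (log2 -1.21 ± 0.46, limma adjusted p = 0.399). Nr1d2 was at 39.6, 47.2 and 46.4 FPKM and at 12.5 to 34.4 FPKM (median 17.3) (log2 -1.17 ± 0.38, limma adjusted p = 0.362). Per3, a period gene, was at 26.7, 29 and 27.6 FPKM and at 9.94 to 26.6 FPKM (median 13.1), its highest value being in Bleo_UNC_5 just below sham (log2 -0.91 ± 0.35, limma adjusted p = 0.399). Arntl was higher, at 1.17, 0.679 and 1.09 FPKM in sham and 1.29 to 5.98 FPKM (median 4.27) after bleomycin (log2 1.23 ± 0.36, limma adjusted p = 0.313). Npas2 was at 0.632, 1.01 and 1.21 FPKM and at 2.74 to 9.52 FPKM (median 5.64) (log2 1.76 ± 0.54, limma adjusted p = 0.341). Bleo_UNC_5 was the lowest bleomycin library for both and the highest for Dbp, Hlf, Tef, Per3, Nr1d1 and Nr1d2, so in all 8 genes it lay on the sham side. Cry1 was the third gene separated with bleomycin higher (3.26, 3.12 and 3.07 FPKM in sham, 3.48 to 5.64 FPKM (median 4.58) after bleomycin), while Per1, Per2, Cry2 and Ciart overlapped; these 5 were named after their values were seen. Clock was listed at 0 in all 9 libraries. Clock genes follow the time of day, which is not given for these samples, so bleomycin and the hour of sampling cannot be told apart here.

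**Figure D3:**
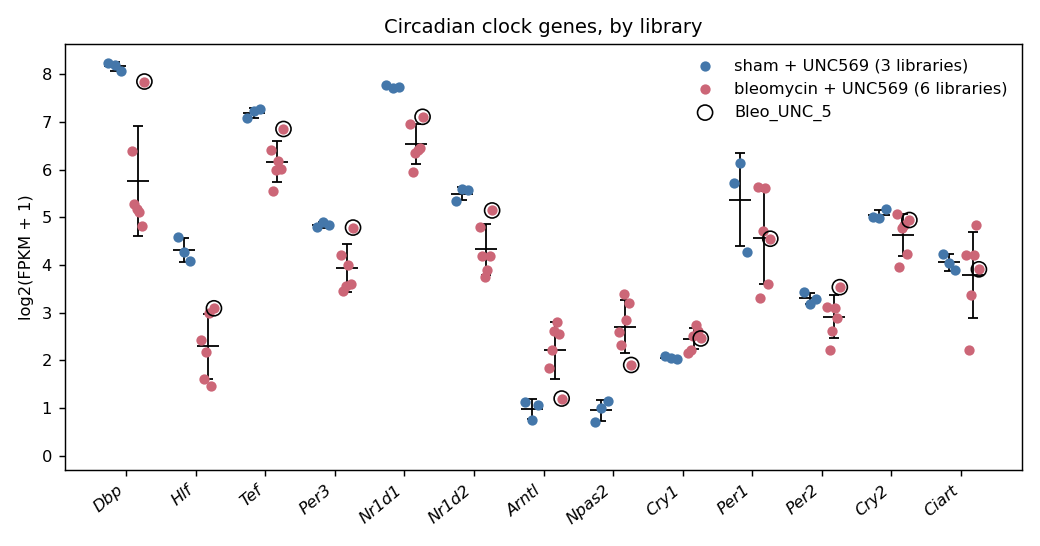
Each dot is 1 library on the log2(FPKM + 1) axis, blue for sham and red for bleomycin, with the mean and SD as black dashes and bars. Bleo_UNC_5 is ringed and lies on the sham side of the bleomycin libraries in the first 8 genes, for example Dbp (229.9 FPKM there and 300.3, 295 and 266 FPKM in sham).

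Promoters of the clock list were searched for the E-box CACGTG (ARNTL complexes), the D-box TTATGTAA (PAR bZIP proteins; TTACATAA on the other strand) and the half-site AGGTCA (NR1D and ROR receptors; TGACCT on the other strand), motifs picked after the levels were seen. In the windows of 250 bases before to 50 after the start, CACGTG was found for 4 of 13 genes (5 of their 18 windows) and in 7.15% of all windows. TTATGTAA was found for 1 of 13 (1 of 18 windows) and in 0.938%, and AGGTCA for 4 of 13 (4 of 18 windows) and in 16.3%. The 250 bases before the start of Per3 and of 1 start of Tef are shown because they hold the D-box and an E-box, in capitals (Per3, chr4:151044666-151044915, minus strand; Tef, chr15:81802423-81802672, plus strand).
Per3: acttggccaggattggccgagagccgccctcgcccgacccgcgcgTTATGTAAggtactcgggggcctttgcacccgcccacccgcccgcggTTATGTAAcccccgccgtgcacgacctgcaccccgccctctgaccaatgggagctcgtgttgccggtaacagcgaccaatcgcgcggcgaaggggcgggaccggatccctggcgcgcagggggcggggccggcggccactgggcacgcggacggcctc
Tef: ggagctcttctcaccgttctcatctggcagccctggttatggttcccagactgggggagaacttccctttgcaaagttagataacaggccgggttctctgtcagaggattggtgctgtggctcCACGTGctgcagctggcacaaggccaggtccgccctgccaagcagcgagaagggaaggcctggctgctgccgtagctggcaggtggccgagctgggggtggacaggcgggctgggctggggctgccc
Per3 held 2 D-box matches and Tef 1 E-box match in these bases. Among the other separated genes, Hlf, Arntl, Npas2, Dbp and Nr1d1 held none of these motifs in the 250 bases. Nr1d2 held 1 AGGTCA and Cry1 1 CACGTG. Of the genes that overlapped between the groups, Ciart held 3 CACGTG, 1 start of Per1 held 1, and Cry2 held none of the motifs.

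Collagen genes, whose products build the scar, had a positive median and none passed. Of 13 fibrillar and associated collagen genes tested, 2 were separated with bleomycin higher (3 after scaling) and 0 lower. The median log2 was 0.36 (0.41 without Sham_UNC_1), between 0.18 and 0.71. Col1a1, a chain of collagen I, was at 48.7, 46.2 and 36.7 FPKM in sham and at 52.5 to 108 FPKM (median 72.5) after bleomycin (log2 0.71 ± 0.36, limma adjusted p = 0.499). Col1a2, its partner chain, was at 98.6, 87.0 and 77.0 FPKM and at 99.6 to 195 FPKM (median 125) (log2 0.61 ± 0.29, limma adjusted p = 0.480). In both the groups did not overlap and Bleo_UNC_1 was highest. Col3a1, of collagen III, was at 92.9, 85.4 and 79.9 FPKM and at 87.6 to 156 FPKM (median 112), with Bleo_UNC_2 and Bleo_UNC_3 inside the sham range (log2 0.41 ± 0.25, limma adjusted p = 0.569). Col16a1 (log2 0.60 ± 0.28, limma adjusted p = 0.464) and Col6a2 (log2 0.30 ± 0.15, limma adjusted p = 0.497) overlapped.

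Among 14 genes of collagen processing, 2 were separated with bleomycin higher and the median log2 was 0.21 (0.22 without Sham_UNC_1). Serpinh1, the collagen chaperone HSP47, was at 394, 335 and 332 FPKM in sham and at 406 to 641 FPKM (median 526) after bleomycin (log2 0.52 ± 0.25, limma adjusted p = 0.483). Plod1, a lysyl hydroxylase, was at 17.9, 17.4 and 11.4 FPKM and at 18.7 to 22.4 FPKM (median 21.7) (log2 0.43 ± 0.19, limma adjusted p = 0.449). Adamts2, which cleaves procollagen, was at 13.7, 13.4 and 15.1 FPKM and 13.6 to 27 FPKM (median 21.6), with Bleo_UNC_2 and Bleo_UNC_3 inside the sham range (log2 0.47 ± 0.22, limma adjusted p = 0.473), and P4ha3, of prolyl hydroxylase, overlapped too (log2 0.74 ± 0.46, limma adjusted p = 0.584). The 16 genes of the unfolded protein response held 4 separated with bleomycin higher, against 1.52% of all genes, and 6 after scaling, against 2.27%. Their median log2 was 0.22 (0.17 without Sham_UNC_1), and members ranged from -0.59 to 0.83. Manf, a secreted stress factor of the endoplasmic reticulum, was at 75.3, 68.9 and 68.7 FPKM and at 78.2 to 140.3 FPKM (median 118) (log2 0.63 ± 0.20, limma adjusted p = 0.341). Sdf2l1 (15.6, 20.6 and 20.9 FPKM in sham, 23.7 to 53.7 FPKM (median 36.3) after bleomycin) and the disulfide isomerase Pdia4 (42.6, 36.7 and 34.5 FPKM in sham, 45.7 to 64.3 FPKM (median 57.3) after bleomycin) were separated as well. Hspa5, the chaperone BiP, was at 168, 156 and 182 FPKM and at 179 to 337 FPKM (median 266), where Bleo_UNC_5 lay inside the sham range (log2 0.56 ± 0.23, limma adjusted p = 0.424).

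Of 18 matricellular, elastic fibre and proteoglycan genes, 0 were separated with bleomycin higher (1 after scaling), and the median log2 was 0.34 (0.45 without Sham_UNC_1). Mfap5, a microfibril protein, was at 21.6, 19.9 and 21.5 FPKM in sham and at 18.8 to 47.2 FPKM (median 37.8) after bleomycin, with Bleo_UNC_3 below sham and the other 5 above it (log2 0.68 ± 0.26, limma adjusted p = 0.402). Fbn1, fibrillin-1, was at 13.2, 11.5 and 12.8 FPKM and at 13.1 to 25.5 FPKM (median 18.3), with Bleo_UNC_2 inside the sham range (log2 0.53 ± 0.26, limma adjusted p = 0.497). Vcan, the proteoglycan versican, was at 1.51, 4.15 and 1.95 FPKM and at 2.44 to 10.7 FPKM (median 3.98), where Bleo_UNC_1 stood far above the rest (log2 0.69 ± 0.41, limma adjusted p = 0.567). Fbln1, fibulin-1, ran the other way in that library, which was the lowest of the bleomycin group at 17.2 FPKM (log2 0.40 ± 0.20, limma adjusted p = 0.501). Tnc, tenascin-C of healing matrix, was at 4.55, 4.30 and 5.23 FPKM in sham, 33.8 FPKM in Bleo_UNC_1 and 4.76 to 12.4 FPKM in the other 5 bleomycin libraries.

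Genes of matrix turnover were mixed. Of 15 proteases and inhibitors, 1 was separated with bleomycin higher, the neutrophil collagenase Mmp8 given above, and 1 lower, and the median log2 was 0.39 (0.23 without Sham_UNC_1). The lower one was Timp2, a tissue inhibitor of metalloproteinases, at 349, 352 and 405 FPKM in sham and 293 to 325 FPKM (median 310.2) after bleomycin (log2 -0.24 ± 0.14, limma adjusted p = 0.564). Timp1, an inhibitor induced in injury, was at 2.89, 0 and 0.561 FPKM, 14.7 FPKM in Bleo_UNC_1 and 1.68 to 4.24 FPKM in the other bleomycin libraries (log2 1.24 ± 0.60, limma adjusted p = 0.483). Timp3, which is bound to matrix, was at 216, 243 and 293 FPKM and 169.8 to 223 FPKM (median 197) (log2 -0.34 ± 0.13, limma adjusted p = 0.402). Of 18 genes of TGF-beta and activin signalling, the main profibrotic pathway, 2 were separated with bleomycin higher and 0 lower, with a median log2 of 0.012 (-0.015 without Sham_UNC_1). Itgb6, a chain of the epithelial integrin that activates latent TGF-beta, was at 12.7, 9.77 and 11.4 FPKM in sham and 14.3 to 23.2 FPKM (median 15.3) after bleomycin (log2 0.50 ± 0.19, limma adjusted p = 0.402). Tgfb3, a ligand, was at 25.9, 25.5 and 22.4 FPKM and 27.2 to 37.6 FPKM (median 28.5) (log2 0.29 ± 0.15, limma adjusted p = 0.517).

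The means of the core and lipid-associated macrophage lists were highest in Bleo_UNC_1, followed by Bleo_UNC_5. The 11 genes of lipid-associated macrophages, the state found in scars, had a mean log2(FPKM + 1) of 6.57 in Bleo_UNC_1, 5.46 in Bleo_UNC_5 and 4.59 to 4.75 in the other 4, beside 4.63 to 4.76 in sham. Spp1, osteopontin, was at 43, 33 and 40.6 FPKM in sham, 1197 FPKM in Bleo_UNC_1 and 33.3 to 126 FPKM in the other bleomycin libraries (log2 1.39 ± 1.03, limma adjusted p = 0.647). Trem2, a lipid receptor, was at 4.73, 1.72 and 2.03 FPKM, 33.8 FPKM in Bleo_UNC_1 and 2.26 to 12 FPKM in the others (log2 1.05 ± 0.65, limma adjusted p = 0.582). Mmp12, macrophage elastase, was at 1.03, 0.857 and 0.520 FPKM, 25.3 FPKM and 0.626 to 7.24 FPKM (log2 1.17 ± 0.74, limma adjusted p = 0.588). Cd9, a tetraspanin, was at 237 to 262 FPKM (median 249) after bleomycin and 261, 202 and 207 FPKM in sham, overlapping only in Sham_UNC_0 (log2 0.17 ± 0.11, limma adjusted p = 0.609). In 0 of the 11 were the groups separated, and the median log2 was 0.28 (0.36 without Sham_UNC_1). Without Bleo_UNC_1, 0 of them were separated with bleomycin higher, against 2.25% of all genes, and 1 with bleomycin lower, against 5.38%.

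Of 15 core macrophage genes, 1 was separated with bleomycin higher (4 after scaling), with a median log2 of 0.43 (0.28 without Sham_UNC_1). That gene was Fcgr1, a high-affinity receptor for IgG, at 2.39, 1.49 and 1.82 FPKM in sham, 12.4 FPKM in Bleo_UNC_1 and 2.82 to 4.38 FPKM in the others (log2 0.91 ± 0.39, limma adjusted p = 0.444). C1qa, of complement C1q, was at 103, 86.4 and 80.8 FPKM, 591 FPKM in Bleo_UNC_1 and 97.3 to 233 FPKM in the others (log2 0.88 ± 0.49, limma adjusted p = 0.538). Cd14, an endotoxin co-receptor, was at 44.3, 42.6 and 41.1 FPKM and at 43.3 to 88.4 FPKM (median 69.4), where only Bleo_UNC_4 lay inside the sham range (log2 0.64 ± 0.34, limma adjusted p = 0.525). For alveolar macrophages (median log2 0.43, and 0.36 without Sham_UNC_1), 1 of 10 genes was separated, Plet1 (18.7, 23.6 and 25.8 FPKM in sham, 26.3 to 47.1 FPKM (median 32.2) after bleomycin), and Chil3, a chitinase-like protein, was at 26.3, 21.8 and 52.7 FPKM and 45.8 to 90.5 FPKM (median 56.8) (log2 0.93 ± 0.32, limma adjusted p = 0.383). MHC class II genes, with a median log2 of 0.069 (-0.038 without Sham_UNC_1), were separated in 0 of 7. H2-Ab1, the member with the smallest p, was at 553, 356 and 434 FPKM in sham and 399 to 761 FPKM (median 426) after bleomycin (log2 0.18 ± 0.20, limma adjusted p = 0.782).

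The target of UNC569, its family and its ligands overlapped between the groups. Mertk (ENSMUSG00000014361, GRCm38 chr2:128698956-128802894, plus strand) was at 12.1, 12.7 and 11.5 FPKM in sham and at 10.3 to 15.1 FPKM (median 11.6) after bleomycin, with the sham values inside the bleomycin range (log2 0.0044 ± 0.18, limma adjusted p = 0.995). Axl was at 32, 31.3 and 32.6 FPKM and at 24.7 to 56.3 FPKM (median 31.1), highest in Bleo_UNC_1 (log2 0.054 ± 0.24, limma adjusted p = 0.953). Tyro3 was at 8.05, 7.27 and 7.40 FPKM and at 6.11 to 10.6 FPKM (median 9.0) (log2 0.13 ± 0.25, limma adjusted p = 0.875). Of the ligands, Gas6 was at 163, 119 and 133 FPKM and at 131 to 203 FPKM (median 152) (log2 0.18 ± 0.17, limma adjusted p = 0.730), and Pros1, protein S, at 39.3, 32 and 40.5 FPKM and at 33.7 to 50.3 FPKM (median 40.5) (log2 0.12 ± 0.15, limma adjusted p = 0.805). Of 12 other efferocytosis genes tested, 1 was separated with bleomycin lower (0 after scaling) and 0 higher, also without Sham_UNC_1 (median log2 0.014 and -0.017). That was Cd36, a scavenger receptor also of endothelium and fat, at 154, 191 and 192 FPKM in sham and 102 to 152 FPKM (median 123) after bleomycin (log2 -0.51 ± 0.15, limma adjusted p = 0.307). Gulp1, an adaptor of engulfment, was at 7.24, 9.42 and 13.8 FPKM and 5.01 to 8.90 FPKM (median 6.95) (log2 -0.49 ± 0.18, limma adjusted p = 0.397), and Stab1, a receptor for phosphatidylserine, at 29.3, 11.8 and 15.0 FPKM and 17.5 to 48.9 FPKM (median 24.9) (log2 0.59 ± 0.37, limma adjusted p = 0.584).

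Chemokine genes held members on both sides. Of 17 CC chemokine and monocyte receptor genes, 2 were separated with bleomycin higher, with a median log2 of 0.25 (0.19 without Sham_UNC_1). Ccl6, a macrophage and neutrophil chemokine, was at 81.0, 66.0 and 103 FPKM in sham and 117 to 534 FPKM (median 159) after bleomycin (log2 1.22 ± 0.47, limma adjusted p = 0.402). Ccl2, which draws monocytes, was at 0.815, 0.417 and 0.505 FPKM and 0.818 to 9.83 FPKM (median 1.61) (log2 0.98 ± 0.66, limma adjusted p = 0.616). Retnla, a marker of macrophages activated by type 2 cytokines, was at 8.21, 9.70 and 23.5 FPKM and 27.5 to 159.9 FPKM (median 40.002) (log2 2.10 ± 1.02, limma adjusted p = 0.483). It comes from a separate list of type 2 response genes. Of 8 tested there, it was the only 1 separated with bleomycin higher, against 1.52% of all genes. That list was mixed, with a median log2 of 0.36 (0.30 without Sham_UNC_1) and a range from -0.56 to 2.10, the value of Retnla. Ccl6, Ccl2 and Retnla were all separated and highest in Bleo_UNC_1. Of 13 CXC chemokine and receptor genes, 2 were separated with bleomycin lower, the lymphocyte receptors Cxcr4 (131, 100.0 and 114 FPKM in sham, 59.6 to 86.8 FPKM (median 81.4) after bleomycin) and Cxcr5 (6.75, 8.27 and 8.62 FPKM in sham, 4.26 to 6.06 FPKM (median 5.49) after bleomycin). Without Sham_UNC_1 3 were separated lower, and the median log2 of the list was 0.073 with all libraries and 0.14 without that one. Cxcr2, the chemokine receptor of neutrophils, was at 0.938, 0.493 and 2.29 FPKM and 2.09 to 14.3 FPKM (median 5.11) (log2 1.501 ± 0.49, limma adjusted p = 0.365). Of 14 IL-1, TNF and NF-kB genes, 1 was separated with bleomycin higher and 1 lower, with the same counts without Sham_UNC_1 (median log2 0.13 and 0.12). The higher one was Il1rn, the antagonist of the IL-1 receptor, at 1.87, 1.68 and 2.98 FPKM and 3.64 to 14.9 FPKM (median 4.50) (log2 1.03 ± 0.40, limma adjusted p = 0.411).

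**Figure D4:**
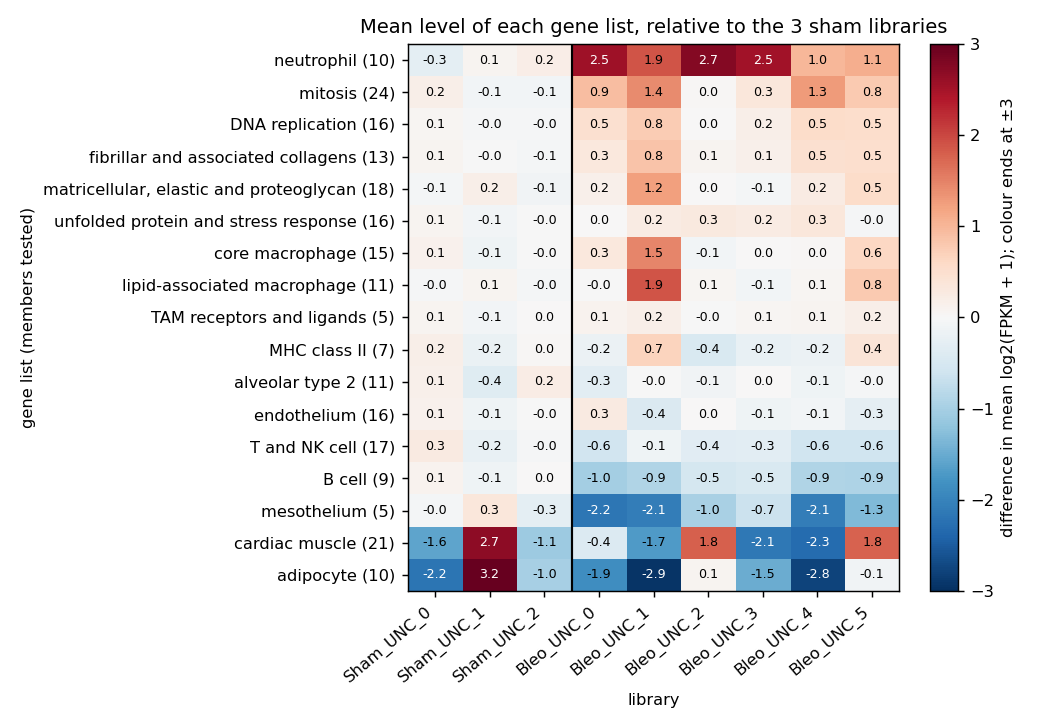
Rows are gene lists with the number of members tested, columns are libraries, and each cell gives the mean log2(FPKM + 1) of the list in that library minus its mean over the 3 sham libraries (red higher, blue lower). Neutrophil genes are above and B cell and mesothelium genes below sham in all 6 bleomycin libraries, the plotted collagen, matricellular, core macrophage and lipid-associated macrophage lists peak in Bleo_UNC_1, and cardiac muscle and adipocyte genes peak in Sham_UNC_1.

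The alveolar type 2, transitional epithelium and endothelium lists each held 1 separated gene. Over all genes, 1.52% were separated with bleomycin higher and 3.83% lower. Of 11 alveolar type 2 genes, 1 was separated with bleomycin lower (0 after scaling), with a median log2 of -0.11. Without Sham_UNC_1 the median was -0.26 and 4 were separated lower, against 6.82% of all genes. Etv5, a transcription factor of these cells, was at 65.1, 50.4 and 88.3 FPKM in sham and at 40.7 to 49.0 FPKM (median 45.4) after bleomycin (log2 -0.55 ± 0.16, limma adjusted p = 0.335). Slc34a2, their phosphate transporter, was at 491, 395 and 630.3 FPKM and at 332 to 428 FPKM (median 387) (log2 -0.37 ± 0.14, limma adjusted p = 0.399). Of 10 genes of the transitional epithelial state seen in repair (median log2 0.26, and 0.21 without Sham_UNC_1), 1 was separated, Plaur, the urokinase receptor, at 21.3, 14.3 and 12.2 FPKM and at 22 to 29.7 FPKM (median 23.5) (log2 0.65 ± 0.14, limma adjusted p = 0.247). Krt8, the keratin that gives the state its name, was at 183, 138 and 128 FPKM and at 134 to 215 FPKM (median 199.9) (log2 0.30 ± 0.20, limma adjusted p = 0.616). Among 16 endothelial genes 1 (6.25%) was separated with bleomycin lower, and 6 without Sham_UNC_1, against 6.82% of all genes there. The median log2 was -0.21 and -0.34. The gene separated with all libraries was Ednrb, an endothelin receptor of alveolar capillaries, at 36, 35.3 and 38 FPKM and at 12.6 to 30.6 FPKM (median 22.3) (log2 -0.76 ± 0.33, limma adjusted p = 0.452). Vwf, von Willebrand factor of larger vessels, ran the other way, at 150.3, 73.6 and 77.6 FPKM and 136 to 245 FPKM (median 178), with Sham_UNC_0 inside the bleomycin range (log2 0.88 ± 0.23, limma adjusted p = 0.289).

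Of 18 p53 targets and cell cycle inhibitors, 1 was separated with bleomycin higher (Cdkn1a) and 1 lower (Btg2), with a median log2 of 0.11 (0.11 without Sham_UNC_1). Cdkn1a, the inhibitor p21, was at 50.7, 40.9 and 43.3 FPKM in sham, 224 FPKM in Bleo_UNC_1 and 56.0 to 114 FPKM in the others (log2 0.98 ± 0.42, limma adjusted p = 0.447). Btg2, an antiproliferative p53 target that is also an early response gene, was lower, at 252, 169 and 186 FPKM and 92.7 to 144 FPKM (median 115) (log2 -0.79 ± 0.39, limma adjusted p = 0.488). The stress cytokine Gdf15 overlapped between 3.53, 1.51 and 2.35 FPKM in sham and 1.5 to 19.4 FPKM (median 7.06) (log2 1.30 ± 0.60, limma adjusted p = 0.463). Of 11 immediate early genes, which respond within minutes to stimuli and to tissue handling, 3 were separated with bleomycin lower and the median log2 was -0.18 (-0.39 without Sham_UNC_1). Nr4a1, an orphan nuclear receptor, was at 233, 137 and 92.5 FPKM in sham and at 25 to 76.7 FPKM (median 66.3) after bleomycin (log2 -1.48 ± 0.59, limma adjusted p = 0.415). Fosb, of the AP-1 factors, was at 15.8, 7.16 and 7.28 FPKM and at 2.47 to 5.77 FPKM (median 2.89) (log2 -1.22 ± 0.51, limma adjusted p = 0.428). Egr1, a zinc finger factor, was at 161, 115 and 137 FPKM and at 53.6 to 87.7 FPKM (median 64.6) (log2 -1.01 ± 0.49, limma adjusted p = 0.483). Handling times are not given, and their part in these levels was not tested.

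The medians of the cardiac muscle, skeletal muscle and adipocyte lists were negative with all 9 libraries and positive without Sham_UNC_1. Over all genes, 144 had a log2 under -1 with the 9 libraries. Of these, 80 were still under -1 without Sham_UNC_1 and 19 turned to 0 or higher. Of 114 genes with a log2 above 1, 94 stayed above 1. The lists of cardiac, ventricular and skeletal muscle and of white and brown fat had 39 members tested. Of these, 13 had a log2 under -1 with all libraries and 2 without Sham_UNC_1, 37 had their highest sham value in Sham_UNC_1, and 0 were separated between the groups. The median log2 of the cardiac muscle list turned from -0.41 to 0.64 without that library, that of the skeletal muscle list from -0.69 to 0.37, and that of the adipocyte list from -1.31 to 0.10. The median of the 2 brown adipocyte genes was -1.04 and, without Sham_UNC_1, -0.53. The 1 ventricular muscle gene tested had a log2 of 0.033 and 0.0029.

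Nppa, the atrial natriuretic peptide, was listed at 0 in Sham_UNC_0 and was at 1371 FPKM in Sham_UNC_1 and 0.272 FPKM in Sham_UNC_2. After bleomycin it was at 305 FPKM in Bleo_UNC_2 and 268 FPKM in Bleo_UNC_5 and at most 0.830 FPKM in the other 4, so the log2 of -0.56 ± 2.52 became 2.86 without Sham_UNC_1. Actc1, cardiac actin, was at 97.2, 498 and 68.8 FPKM in sham and 24.2 to 311 FPKM (median 87.2) after bleomycin (log2 -0.70 ± 0.87, limma adjusted p = 0.796). Mb, myoglobin, was at 11.1, 559 and 20.8 FPKM and 0.244 to 339.8 FPKM (median 23.1) (log2 -1.45 ± 2.19, limma adjusted p = 0.839). Myl4, the atrial light chain, was at 10.7, 489 and 16.8 FPKM and 0.609 to 243 FPKM (median 23.2) (log2 -1.20 ± 1.89, limma adjusted p = 0.848). All 4 genes were high in Sham_UNC_1, Bleo_UNC_2 and Bleo_UNC_5. In mice the walls of the pulmonary veins hold cardiac muscle, and heart tissue lies next to the lung; which of them these transcripts come from was not tested. The summed cardiac list was 139 to 4115 FPKM in sham and 52.7 to 1881 FPKM after bleomycin.

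Fabp4, a fatty acid binding protein of adipocytes and capillaries, was at 3.82, 944 and 16.8 FPKM in sham and at 2.74 to 62.4 FPKM (median 10.5) after bleomycin (log2 -1.44 ± 1.57, limma adjusted p = 0.767). Its log2 was 0.79 without Sham_UNC_1. Adipoq, adiponectin, was at 0.673, 387 and 9.81 FPKM and 0 to 24.8 FPKM (median 1.88) (log2 -2.23 ± 1.71, limma adjusted p = 0.659), with -0.060 without Sham_UNC_1. Cfd, adipsin, was at 6.69, 761 and 30.6 FPKM and 0 to 111 FPKM (median 10.8) (log2 -2.51 ± 2.11, limma adjusted p = 0.688). Car3, a carbonic anhydrase of fat and muscle, was at 2.93, 767 and 22.4 FPKM and 0 to 61.0 FPKM (median 7.95) (log2 -2.37 ± 1.94, limma adjusted p = 0.679). Sham_UNC_1 was the highest of the 9 libraries in these 4 genes, and both Cfd and Car3 were listed at 0 in Bleo_UNC_1 and Bleo_UNC_4. The summed adipocyte list was 68.8 to 3493 FPKM in sham and 47.6 to 334 FPKM after bleomycin. The neutrophil, B cell and mesothelium medians above kept their sign without Sham_UNC_1.

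**Figure D5:**
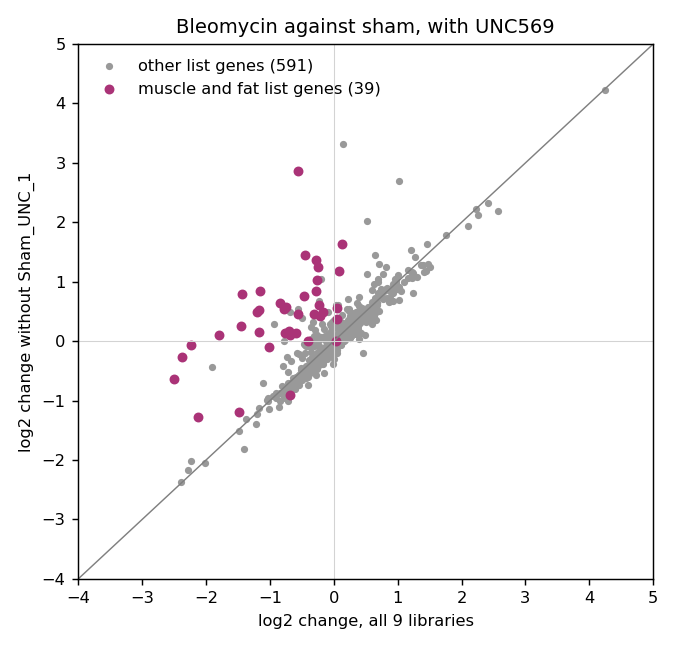
Each dot is 1 list gene, with its log2 change over all 9 libraries on the x axis and without Sham_UNC_1 on the y axis, and the grey line marks equal values. The 39 muscle and fat genes lie mostly above the line, 13 of them under -1 on the x axis and 2 on the y axis, while most of the 591 other list genes lie near it.

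The bleomycin response with UNC569 was then set beside that of mice given DMSO, which has its own 6 bleomycin and 3 sham libraries. With limma, 0 genes passed for the difference between the responses (0%; smallest adjusted p = 0.220), and 815 were higher (5.11%) and 1078 lower (6.76%) with UNC569 at an unadjusted p under 0.05. Without Sham_DMSO_2 the count was 408 higher and 283 lower. The 2 DMSO sham libraries that then remained, Sham_DMSO_0 and Sham_DMSO_1, were the closest sham pair (Pearson r = 0.976 across genes, which are not independent replicates). The 5 genes with the smallest p over all libraries were Gm26636, Sept6, Capzb, Ift140 and Snn. Their log2 with UNC569 and with DMSO was 1.19 and -0.077 for Gm26636 and -0.71 and 0.15 for Sept6. Capzb, of the actin capping protein, had -0.50 and 0.42, and its sham and bleomycin libraries were separated in opposite directions. Ift140, of transport in cilia, had 0.41 and -0.73, and Snn, stannin, whose groups were likewise separated in opposite directions, -0.37 and 0.59.

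With DMSO, limma called 4 genes higher (0.0251%) and 7 lower (0.0439%). There the groups did not overlap with bleomycin higher in 3.92% of genes and lower in 3.41%. Neutrophil genes had a median log2 of 1.86 with UNC569 and 0.11 with DMSO, where 0 of 10 were separated. With DMSO the neutrophil list mean was 3.27 and 2.92 in Sham_DMSO_0 and Sham_DMSO_1, the 2 sham libraries high in cardiac muscle and fat genes, 1.45 in Sham_DMSO_2 and 1.87 to 3.40 after bleomycin; the part of these 2 libraries in the difference was not tested. Ngp with DMSO was at 6.15, 2.61 and 0.179 FPKM in sham and 0.313 to 7.07 FPKM (median 2.28) after bleomycin, and the difference between its responses was 4.11 ± 0.97 (limma adjusted p = 0.272). B cell genes had a median log2 of -0.84 and 0.093, and 0 of 9 were separated with DMSO. The summed B cell list with UNC569 was 189 to 220 FPKM in sham and 89.7 to 135 FPKM after bleomycin. With DMSO it was 107 to 117 FPKM in sham and 63.4 to 219 FPKM after bleomycin, so the 2 sham groups differed in level. MHC class II genes had a median log2 of 0.069 and 0.72, with 7 of 7 separated with bleomycin higher under DMSO and 0 under UNC569. Their list mean with UNC569 was 6.64 to 7.03 in sham and 6.40 to 7.52 after bleomycin, highest in Bleo_UNC_1 (7.52) and Bleo_UNC_5 (7.25). With DMSO it was 6.45 to 6.73 in sham and 7.02 to 7.40 after bleomycin. The part of the sham levels in this contrast was not tested. Mesothelium had a median log2 of -1.38 and -1.27, with 5 of 5 separated with bleomycin lower under UNC569 and 0 of 5 under DMSO. With DMSO the mesothelium list mean was 2.98 and 2.86 in Sham_DMSO_0 and Sham_DMSO_1, 4.32 in Sham_DMSO_2 and 1.47 to 3.41 after bleomycin. The part of Sham_DMSO_0 and Sham_DMSO_1 in this overlap was not tested. Mitosis genes had 0.79 and 0.73 (4 and 6 separated higher), collagens 0.36 and 0.76 (2 and 4 higher), and clock genes -0.80 and -1.47 (6 and 6 lower, 3 and 1 higher). Cardiac muscle genes had -0.41 and -2.55. Their mean log2(FPKM + 1) was 5.91 in Sham_DMSO_0 and 5.86 in Sham_DMSO_1, above the 5.66 of Sham_UNC_1, and 1.21 in Sham_DMSO_2. None of these list differences was tested as a whole, and no member passed.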

How the data were processed

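Lung RNA-seq of wild-type mice was used as deposited: FPKM per gene and library, made by the authors. The submitters' processing notes name FastQC, Trim Galore, STAR, edgeR and the builds hg38 and mm10, without roles; the tool and annotation behind the FPKM are not given in the sources used here. Of 38277 gene IDs, 94.9% matched GENCODE M21, which gave names and GRCm38 coordinates. Columns were assigned to groups by their names; no label ties a column to a sample.

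The 15935 genes with at least 1 FPKM in at least 3 of 18 lung libraries were tested on log2(FPKM + 1) with limma 3.58.1 (R 4.3.3, trend), in 1 fit over the 4 lung groups (bleomycin or sham, with UNC569 or DMSO), with Benjamini-Hochberg adjustment over all genes and a threshold of 0.05. On simulated data with the same groups, 100 genes were given a 2-fold and 100 a 4-fold change, all of them away from the lowest levels. Noise was drawn for each gene on its own, without differences between whole libraries such as that of Sham_UNC_1. There 68% of 2-fold and 95% of 4-fold changes were recovered, with 15 false calls. These shares are therefore not the power of the test in the real libraries. Depth is unknown, so no counting interval is given.

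The comparison, the 55 gene lists and the tests were chosen with earlier results of these data known. Genes named were the TAM receptors and their ligands; called genes of at least 10 FPKM in either group with separated groups; up to 4 members with the smallest p of each list described, and others that show a list to be mixed; the 5 with the smallest p for the difference between responses; and the most abundant muscle and fat genes. Gm26636, Cks2, Sept6, S100a8, Dbp, Per3, Nr1d1, Nr1d2, Msln, Tnc, Col3a1, Retnla, Ccl2, Timp2, Cry1 and the clock genes that overlapped were named after their values were seen. Alternatives were another pseudocount, other filters, scaling, covariates, a replicate block, robust fitting, a fit on 9 libraries and leaving out each library. Promoters came from RefSeq (GRCm38.p6, the same coordinates as mm10), and motifs were counted on both strands. The values of 1 gene are not reported here.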

Additional observations from a re-analysis of the deposited data

Results flagged for a closer look

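Among the 6 bleomycin libraries, a value was set aside for a second look when the gap between the highest or lowest library and its neighbour exceeded Dixon's critical share of the whole range for 6 values, on the log2(FPKM + 1) scale. Of 118 named genes 8 met this, and of 30 gene lists 3 did. Chance alone gives about 1 in 20 such groups.

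Bleo_UNC_1 was the library apart in all 8 genes. It was highest for Il1rn, the IL-1 receptor antagonist (gap over range 0.812), Fcgr1 (0.727), the monocyte chemokine Ccl2 (0.720), the integrin gene Itgb6 (0.641), Spp1 (0.632), Vcan (0.631) and the actin capping gene Capzb (0.633). It was lowest for the fibulin gene Fbln1 (0.649). By the mean of the list, Bleo_UNC_1 was highest for the CC chemokines and monocyte receptors (0.650) and for the CXC chemokines and receptors (0.676). The immediate early genes had their highest mean in Bleo_UNC_0 (0.637).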

How the results depend on the processing

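The counts of 3 higher and 1 lower genes changed with most settings. With a pseudocount of 0.1, 5 genes were higher, and with no filter on low values 1 was higher and 3 lower. A fit on the 9 UNC569 libraries alone called 0 and 0. With the cardiac muscle list as a covariate 5 were higher, and with the cardiac muscle and adipocyte lists as covariates 1 was higher and 0 lower. With a replicate block on the column number, 0 were higher, 0 lower and 1 was lower in the difference between responses. Same-numbered sham and bleomycin libraries did not deviate together (correlations -0.041, -0.11 and -0.23). The highest correlations were those of Sham_UNC_1 with Bleo_UNC_5 (0.30) and Bleo_UNC_2 (0.27), all high in cardiac muscle genes. With so few sham libraries these values cannot show whether the numbers pair libraries. Averaging Sham_DMSO_0 and Sham_DMSO_1, an alternative chosen after seeing the data, called 1 higher and 1 higher in the difference. Leaving out 1 library each gave 0 to 3 higher and 0 to 4 lower genes. The count was 0 and 0 without Sham_UNC_1 or Bleo_UNC_3, 1 and 0 without Sham_UNC_0, Bleo_UNC_0, Bleo_UNC_1 or Bleo_UNC_4, 1 and 4 without Sham_UNC_2, and 2 and 1 without Bleo_UNC_5. The difference gave 0 to 408 higher and 0 to 283 lower, the highest without Sham_DMSO_2. Over all of these the cause was not tested.

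Some genes that did not pass changed sign. Mertk was -0.0052 with the replicate block and -0.040 with the cardiac covariate, which also turned Nppa to 0.40. With both covariates Axl was -0.26, Pros1 -0.075, Ager -0.0017, H2-Ab1 -0.0024, Actc1 0.11, Nppa 1.23, Cfd 0.21, Fabp4 0.39 and Car3 0.17. Leaving out 1 library gave ranges of -0.055 to 0.048 for Mertk, -0.095 to 0.14 for Axl, -0.071 to 0.13 for Ager, -0.25 to 2.02 for Ltf, -0.47 to 0.054 for Ciart, -1.26 to 0.16 for Actc1, -2.20 to 0.50 for Myl4, -2.35 to 2.86 for Nppa, -2.51 to 0.25 for Mb and -3.02 to 0.79 for Fabp4. Of the other values of the 118 named genes, 1142 kept direction and side of the threshold in settings with all libraries and 1021 with 1 left out, and 16 and 25 kept direction but lost the call, all of them of Ngp, Cks2, Sept6 and Gm26636.

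The depth of these libraries is unknown, and each comparison has only 3 sham libraries. A gene that did not pass was not shown to have the same level in both groups.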
